A study of Mus musculus with 24 samples.

Results

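Acyl-CoA synthetases and fatty acid transport proteins were followed in murine pancreatic stellate cells (PSC) co-cultured with pancreatic cancer cells. The 8 genes are Acsl1, Acsl3, Acsl4 and Acsl5 of the long-chain acyl-CoA synthetases, Slc27a1, Slc27a3 and Slc27a4 of the fatty acid transport proteins, and the lysophospholipid acyltransferase Lpcat3, out of 53801 genes with values. They were taken by name, and the set was chosen by the FPKM values of Acsl4 and Acsl1, which had been seen to change in opposite directions in these samples. Values of these 2 genes are therefore a description without a p-value, and only the other 6 genes were tested.

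All PSC came from wild-type C57BL/6J mice of 7 to 10 weeks, with 4 to 10 pancreata pooled for an isolation, and were used between the first and the second passage. The 24 libraries of polyA RNA form 8 groups of 3, namely PSC with KPC cells and mono-cultured control PSC, in the standard and the inverse model, at 24 h and 72 h. PSC always sat on top of an insert membrane with pores of 1 µm. KPC cells covered the well floor in the standard model (distant paracrine co-culture in the labels), and the lower face of the same membrane in the inverse model (close paracrine co-culture). The controls held no KPC cells, and every KPC culture came from 1 murine pancreatic cancer line. PSC of the inverse model were seeded onto inserts that KPC cells already occupied, so that co-existence lasted up to 96 h at the 72 h time point, against 72 h in the standard model. Per the paper, PSC and controls of the standard model were seeded in a low-glucose medium and changed to the experimental medium when time counting began. Those of the inverse model were in the experimental medium from seeding. Libraries were made from 450 ng RNA in the standard and 120 ng in the inverse model. The effects of model, medium before time counting, time of co-existence and RNA amount cannot be told apart. The labels do not say whether replicates are separate isolations, and p-values measure only the spread between these samples.

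A fatty acid enters lipid metabolism only after it has been coupled to coenzyme A. Long-chain acyl-CoA synthetases do this at intracellular membranes, and fatty acid transport proteins combine the same activity with uptake of fatty acids into the cell. Acsl4 prefers arachidonic acid and other polyunsaturated fatty acids, and Lpcat3 places such acyl groups into membrane phospholipids, which makes the pair known as promoters of lipid peroxidation in ferroptosis. Acsl1 and Slc27a1 are abundant in adipocytes and serve fat storage and oxidation. Quiescent PSC keep lipid droplets and lose them on activation.

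Acsl1 lies on chromosome 8 (46471037 to 46536051, plus strand, ENSMUSG00000018796) and Acsl4 on chromosome X (142317993 to 142390535, minus strand, ENSMUSG00000031278) of GRCm38. The RefSeq starts of these genes (build GRCm38.p6) are shown because the genes moved in opposite directions, and the 250 bases before each start are printed 5′ to 3′ on the strand of the gene. The windows are chr8:46470787-46471036 and chr8:46490716-46490965 for the 2 starts of Acsl1, and chrX:142390536-142390785 for Acsl4. Capitals mark the GC box, spelled GGGCGG, and the CCAAT box on either strand, the latter read as ATTGG where it lies on the opposite strand.

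Acsl1 start 1: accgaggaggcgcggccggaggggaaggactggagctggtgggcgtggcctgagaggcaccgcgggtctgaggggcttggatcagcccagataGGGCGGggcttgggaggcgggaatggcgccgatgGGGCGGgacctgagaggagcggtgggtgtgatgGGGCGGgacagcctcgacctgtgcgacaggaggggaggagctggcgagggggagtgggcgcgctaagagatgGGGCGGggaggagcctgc
Acsl1 start 2: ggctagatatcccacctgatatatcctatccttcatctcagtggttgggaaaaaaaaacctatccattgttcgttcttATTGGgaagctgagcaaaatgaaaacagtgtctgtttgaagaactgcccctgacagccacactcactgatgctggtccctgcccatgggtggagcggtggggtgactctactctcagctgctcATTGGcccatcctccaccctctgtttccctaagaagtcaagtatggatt
Acsl4: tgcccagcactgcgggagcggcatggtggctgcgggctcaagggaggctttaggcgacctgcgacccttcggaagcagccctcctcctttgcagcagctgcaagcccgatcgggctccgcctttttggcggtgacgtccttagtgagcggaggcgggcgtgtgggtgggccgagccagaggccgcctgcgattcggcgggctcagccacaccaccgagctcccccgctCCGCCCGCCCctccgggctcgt

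The first Acsl1 window held 4 GC boxes at 72.0% GC, and the Acsl4 window held 2, which overlap, at 70.8% GC. The second Acsl1 window, at 48.4% GC, held 2 CCAAT boxes and no GC box. Over all 32851 RefSeq windows of this length, the median GC was 52.4%, 32.7% held a GC box and 33.8% a CCAAT box. The nuclear receptor motif AGGTCA, searched on both strands and found in 14% of all windows, occurred in none of the 11 windows of the 8 genes. The same held for the TATA box, spelled TATAAA and found in 12.4% of all windows. An E-box, spelled CACGTG and found in 6.0%, occurred only in the third window of Slc27a1. A match is a stretch of letters and says nothing on binding.

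All 8 genes were expressed in every library. Levels are given in FPKM, a gene's fragments scaled to its length and to the depth of the library. Over the 24 libraries, the median FPKM was 73.1 for Lpcat3, 59.4 for Acsl5, 50.7 for Acsl1, 24.1 for Slc27a4, 21.4 for Acsl4, 11.7 for Acsl3, 10.9 for Slc27a1 and 5.37 for Slc27a3. The deposited FPKM use the mean length of a gene's transcripts, and the order depends on it. Per length of all exons together, Lpcat3 stayed the highest at 22.8, Acsl4 was the second at 16.4, and Acsl1 was the fifth at 8.46. The highest group mean was 13.6 times the lowest for Acsl1, 2.4 times for Acsl4, 2.36 times for Slc27a3 and 2.32 times for Slc27a1, but only 1.32, 1.28, 1.26 and 1.18 times for Acsl3, Slc27a4, Lpcat3 and Acsl5. Each value rested on at least 71 fragments (Slc27a3) and at most 14441 (Acsl1), so that counting alone gave errors between 11.9% and 0.832%.

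Many of the 17 other acyl-CoA synthetases and transport proteins searched were near 0. Slc27a2, Acsm1 and Acsm2 were listed at 0 in all libraries, and the highest FPKM in any library was 0.0452 for Acsbg2, 0.0517 for Acsm4, 0.152 for Acsm5, 0.343 for Slc27a5, 0.475 for Acsm3, 1.05 for Acsl6 and 1.08 for Acsbg1. Slc27a6 ranged from 0.354 to 5.73, and expressed in every library were Aacs (69.8 to 113), the synthetase of acetoacetate, Acss2 (3.64 to 25.7), Acsf2 (7.69 to 19.1) and Acsf3 (2.38 to 6.56). The cells carried Des (26.2 to 87.8 FPKM) and the highest Epcam value was 0.123, whereas Gfap, a marker of quiescent PSC, did not pass 0.237 FPKM in any library. Libraries held between 15932737 and 24798761 counted fragments. In the standard model, the libraries numbered 2 had the highest sums of 12 macrophage markers in all 4 groups (373 to 1208 FPKM, against 39.1 to 169 in the other 8 libraries). In inverse co-culture at 24 h, replicate 2 stood apart with a sum of 49.4 FPKM over 11 epithelial markers, with Krt8 at 15.2, Krt18 at 11.7 and Krt19 at 11.6 FPKM, against 8.08 and 11.5 for the sums of the other replicates.

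**Figure D1:**
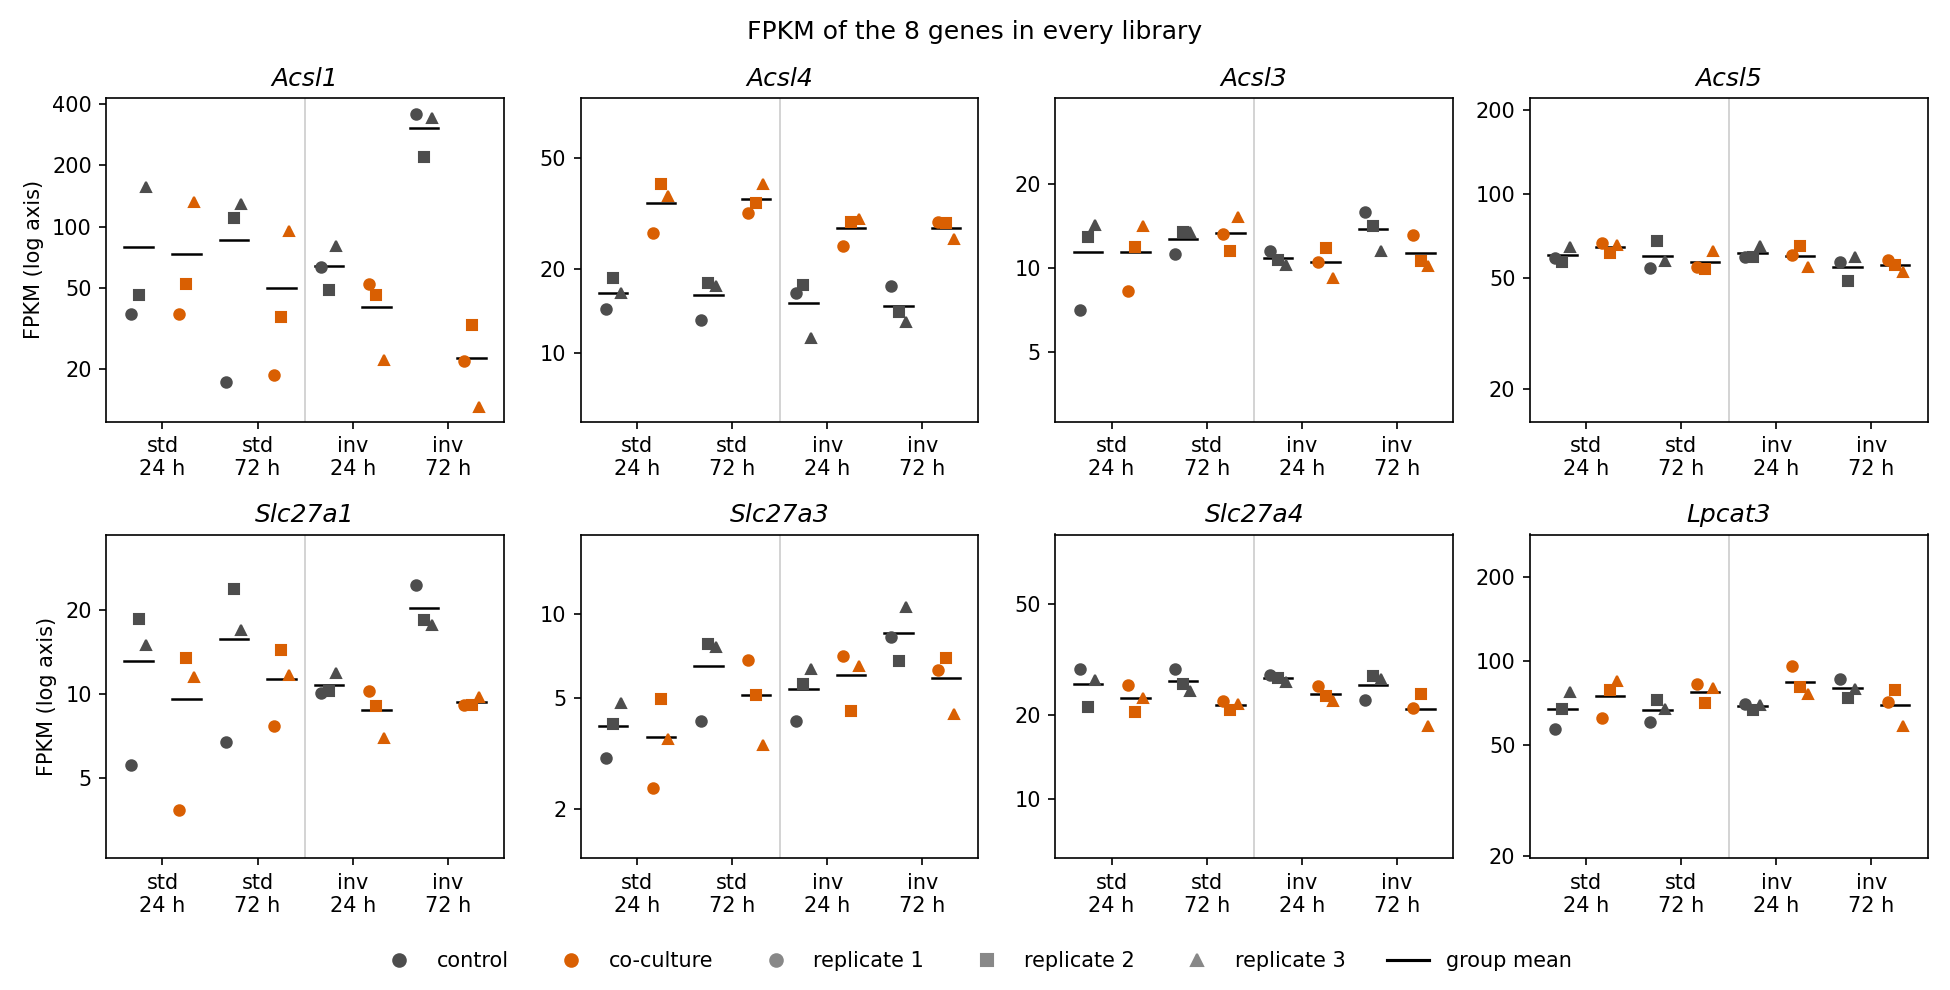
FPKM (log axis) of each of the 8 genes in all 24 libraries, as grey points for control and orange points for co-cultured PSC, with a symbol for each replicate number and a line at the group mean (std, standard; inv, inverse). Acsl4 was higher in every co-culture library than in every control of its comparison, whereas Acsl1 spread from 13 to 357 FPKM with its highest values in inverse controls at 72 h.

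Acsl4 was higher in co-cultured than in control PSC in both models and at both time points, with no overlap between groups. Standard co-culture at 24 h gave 27, 40.3 and 36.5 FPKM in replicates 1 to 3 against 14.4, 18.6 and 16.4 in controls. At 72 h the values were 31.9, 34.4 and 40.5 against 13.2, 17.8 and 17.4. The means of 34.6 ± 6.84 and 35.6 ± 4.41 (SD, n = 3) were 2.1 and 2.21 times those of the controls. Inverse co-culture gave 24.3, 29.5 and 30.3 FPKM at 24 h against 16.4, 17.6 and 11.3 in controls. At 72 h the values were 29.5, 29.3 and 25.6 against 17.4, 14.1 and 12.9. The mean was 28.1 FPKM at both times, with an SD of 3.25 and 2.2, which was 1.86 and 1.9 times the control mean.

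On the log2(FPKM + 0.5) scale, the scale of all fold changes here, the co-culture effect on Acsl4 was 1.04 ± 0.19 (SE) in the standard model at 24 h, 1.12 ± 0.17 at 72 h, 0.89 ± 0.18 in the inverse model at 24 h and 0.91 ± 0.14 at 72 h. Without the keratin-containing replicate 2 of inverse co-culture, the 24 h value was 0.85 ± 0.22. Without the libraries numbered 2 of the standard model, the values were 1.01 ± 0.24 and 1.22 ± 0.24. The effect in the inverse model minus that in the standard model was -0.15 ± 0.25 at 24 h and -0.21 ± 0.25 at 72 h. Control PSC had a mean between 14.8 and 16.5 FPKM in all 4 groups, and their change from 24 h to 72 h was -0.03 ± 0.18 in the standard and -0.01 ± 0.18 in the inverse model. Groups that do not overlap in the higher direction made up 3.35% and 3.36% of all genes tested in the standard model at 24 h and 72 h, and 7.38% and 9.53% in the inverse model, which is given as background because Acsl4 was chosen for this pattern. In order of group medians, the 4 co-culture groups held the first 4 places (36.5, 34.4, 29.5 and 29.3 FPKM), and the control groups lay between 17.4 and 14.1. Neighbours in this order overlapped, except that standard co-culture at 72 h lay above inverse co-culture at 24 h, and inverse co-culture at 72 h above standard controls at 72 h.

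Acsl1 was lower in inverse co-culture at 72 h than in its controls, without overlap (28.8% of all genes tested were lower without overlap there), and the controls of that time point held the highest values of the data. Control PSC gave 357, 219.6 and 341 FPKM and co-cultured PSC 21.9, 32.9 and 13 FPKM. The means of 306 ± 75.2 and 22.6 ± 9.97 FPKM (SD, n = 3) differ 13.6-fold, with a log2 fold change of -3.79 ± 0.33. At 24 h in the same model, co-cultured PSC gave 52.4, 46.2 and 22.2 FPKM against 63.4, 49.1 and 80.4, and the groups overlapped, with a log2 fold change of -0.73 ± 0.31 (-0.88 ± 0.35 without the keratin-containing replicate). The effect at 72 h minus that at 24 h was -3.06 ± 0.51. The larger part of this difference lay in the controls. In mono-cultured PSC of the inverse model, the Acsl1 mean at 72 h was 4.76 times that at 24 h (log2 2.24 ± 0.22). Co-cultured PSC had 40.3 ± 16 FPKM at 24 h and 22.6 ± 9.97 at 72 h, with overlap. As these are bulk samples, fewer cells of a type and less RNA per cell cannot be told apart.

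Standard co-culture gave another picture, in which Acsl1 followed the replicate number more than the co-culture. At 24 h, co-cultured PSC gave 37.2, 52.4 and 132 FPKM and controls 37.2, 46.4 and 156, a log2 fold change of -0.02 ± 0.68. At 72 h, the values were 18.8, 35.9 and 95.4 against 17.2, 109.9 and 129.7, a log2 fold change of -0.64 ± 0.90. The highest library of a group was 3.55 to 7.56 times the lowest in the standard model and 1.63 to 2.54 times in the inverse model. Blocking on the replicate number lowered the standard errors to 0.10 at 24 h and 0.33 at 72 h. Without the libraries numbered 1, which held the lowest Acsl1 value of each group, the 72 h value was -1.02 ± 0.43, and without those numbered 2 it was -0.16 ± 1.24. The effect in the inverse model minus that in the standard model was -0.71 ± 1.00 at 24 h and -3.16 ± 1.00 at 72 h. By group median, inverse controls at 72 h led with 341 FPKM, standard controls at 72 h followed with 109.9 FPKM without overlap, and each further group overlapped its neighbour, down to 21.9 FPKM in inverse co-culture at 72 h.

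**Figure D2:**
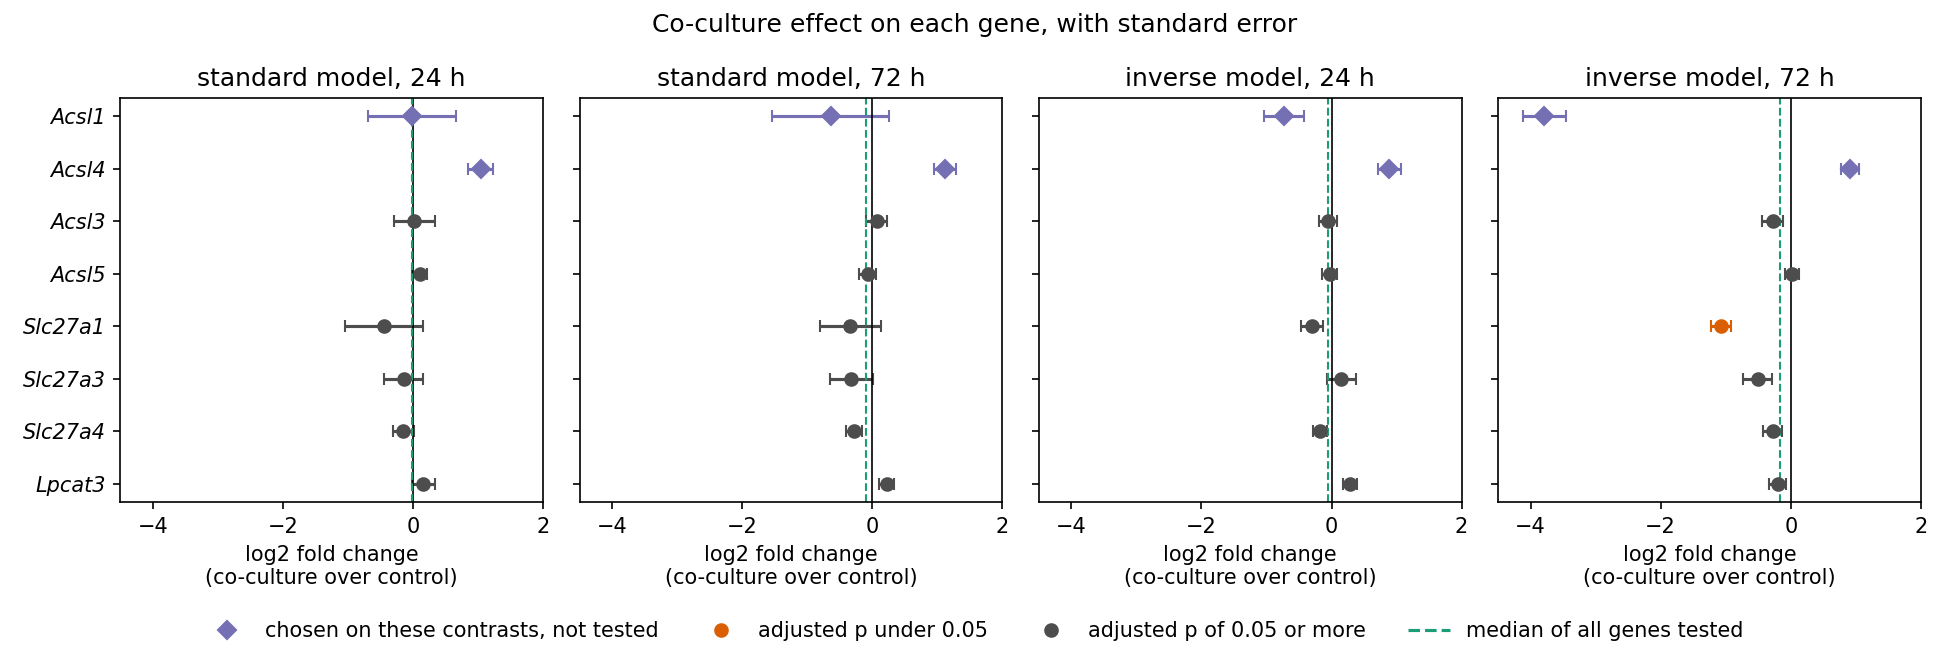
Log2 fold change of co-culture over control for each of the 8 genes in the 4 comparisons, with bars of 1 standard error, a solid line at 0 and a dashed line at the median of all genes tested. Acsl4 lies between 0.89 and 1.12 in all panels, Acsl1 reaches -3.79 in the inverse model at 72 h, and Slc27a1 is the only tested gene past the adjusted p limit, in that same panel.

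Of the 6 tested genes, Slc27a1 passed the limit in the inverse model at 72 h, and the other 5 passed it in no co-culture comparison. Tests of a difference of its effect between models or time points did not pass. Slc27a1 (FATP1) is the fatty acid transport protein of adipocytes and muscle, and lies on chromosome 8 (71568882 to 71587302, plus strand). Co-cultured PSC gave 9.08, 9.1 and 9.76 FPKM and controls 24.6, 18.4 and 17.7 FPKM. Every co-culture library lay below every control, as was the case for 28.8% of all genes tested. The mean of 9.31 ± 0.383 was 2.17-fold lower than that of 20.2 ± 3.82 (SD, n = 3). The log2 fold change was -1.07 ± 0.15 (limma, adjusted p = 0.00774). This is 1 of 6 genes, where 12.8% of all 13066 genes tested were called (9.57% lower and 3.27% higher). The median of all genes was -0.16 in this comparison, relative to which Slc27a1 was at -0.91, Acsl1 at -3.64 and Acsl4 at 1.07. Leaving out each library in turn gave values from -1.15 to -0.92 for Slc27a1. In a fit over all 24 libraries, whose spread includes the standard model, the standard error was 0.45 and the limma adjusted p was 0.151.

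At 24 h in the inverse model, Slc27a1 gave 10.2, 9.02 and 6.96 FPKM in co-culture against 10.1, 10.2 and 11.9 in controls (log2 -0.30 ± 0.17, limma adjusted p = 0.483), with overlap. Its control level rose to 72 h by 0.87 ± 0.15 on the log2 scale (limma, adjusted p = 0.00598), 1.88-fold in the means and without overlap, where 19.2% of all genes tested were called, 10.2% higher and 9.05% lower, and 22.8% were higher without overlap. This too was lost in the fit over all 24 libraries (adjusted p = 0.322). The effect at 72 h minus that at 24 h was -0.77 ± 0.23, which did not pass the limit (limma, adjusted p = 0.281, unadjusted 0.00543). Across the standard groups, Slc27a1 was the highest in replicate 2 and the lowest in replicate 1 of each group. Values at 24 h were 3.82, 13.4 and 11.5 in co-culture and 5.55, 18.6 and 15 in controls, and at 72 h 7.68, 14.4 and 11.7 against 6.72, 23.7 and 16.9. The same-numbered co-culture library was lower in all 3 pairs at 24 h (log2 ratios of -0.49, -0.46 and -0.38) and in 2 of 3 at 72 h. The log2 fold changes were -0.44 ± 0.60 and -0.34 ± 0.47 (limma, adjusted p = 1 and 0.929), and with the replicate block -0.44 ± 0.11 and -0.34 ± 0.21 (limma, adjusted p = 0.136 and 0.576). The difference of the effect between the models at 72 h was -0.72 ± 0.63 (limma, adjusted p = 0.997).

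The other fatty acid transport proteins did not pass the limit in any co-culture comparison. Slc27a4 (FATP4), a widely expressed acyl-CoA synthetase of the endoplasmic reticulum, was lower in every co-culture library than in every control in 2 comparisons. In the standard model at 72 h it gave 22.5, 20.9 and 21.8 FPKM against 29.1, 25.9 and 24.4 (log2 -0.28 ± 0.12, limma adjusted p = 0.779, unadjusted 0.0532). In the inverse model at 24 h it gave 25.4, 23.4 and 22.5 against 27.7, 27.1 and 26.2 (log2 -0.18 ± 0.11, limma adjusted p = 0.494). Of all genes tested, 9.78% and 13.8% were lower without overlap in these comparisons. The groups overlapped in the inverse model at 72 h, with a log2 fold change of -0.28 ± 0.14 (limma, adjusted p = 0.203). Its level was the most even of the 3 transport proteins, with group means from 21.1 to 27 FPKM.

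Slc27a3, an acyl-CoA synthetase of the same family, gave 6.3, 6.98 and 4.38 FPKM in inverse co-culture at 72 h against 8.31, 6.81 and 10.6 in controls (log2 -0.51 ± 0.22, limma adjusted p = 0.164), with overlap. In inverse controls it was higher at 72 h than at 24 h in every library (4.15, 5.62 and 6.36 FPKM at 24 h), as were 22.8% of all genes tested, with a log2 fold change of 0.62 ± 0.21 just outside the limit (limma, adjusted p = 0.0653). It passed with voom on the recovered fragments and without replicate 2 of the 72 h controls. In standard controls the same comparison gave 0.63 ± 0.31 (limma, adjusted p = 1).

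Acsl3, the synthetase of lipid droplets and the endoplasmic reticulum, and Acsl5, which resides in mitochondria and the endoplasmic reticulum, showed no difference past the limit. Acsl3 in the inverse model at 72 h gave 13.1, 10.6 and 10.2 FPKM against 15.9, 14.1 and 11.5 (log2 -0.28 ± 0.16, limma adjusted p = 0.271). In the other 3 comparisons its values lay between -0.05 and 0.07. Acsl5 had group means from 55.1 to 65 FPKM. Its largest co-culture effect was 0.10 ± 0.11 in the standard model at 24 h, and the value in the inverse model at 72 h was 0.02 ± 0.11 (limma, adjusted p = 1 and 0.928).

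Lpcat3 did not pass the limit either. In the inverse model at 24 h, co-cultured PSC gave 96, 81.1 and 76.3 FPKM against 70.2, 66.7 and 70.0 in controls, with no overlap (log2 0.28 ± 0.11, limma adjusted p = 0.27, unadjusted 0.031). Groups were higher without overlap in 7.38% of all genes there. At 72 h the values were 71.6, 78.6 and 58.8 against 86.7, 73.6 and 79.5 (log2 -0.20 ± 0.13, limma adjusted p = 0.317). The effect at 72 h minus that at 24 h was -0.49 ± 0.17 (limma, adjusted p = 0.362, unadjusted 0.0145). Standard co-culture gave a log2 fold change of 0.16 ± 0.17 at 24 h and 0.22 ± 0.12 at 72 h (limma, adjusted p = 1 and 0.799). Acsl4 and Lpcat3, which act in sequence on polyunsaturated fatty acids, thus had values of 0.91 and -0.20 side by side in inverse co-culture at 72 h.

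In 3 of the 4 co-culture comparisons, 0 of the 6 tested genes were called. The background was 0% of 12859 genes in the standard model at 24 h, 0% of 12863 at 72 h and 2.47% of 12827 in the inverse model at 24 h (1.08% higher and 1.39% lower). At an unadjusted p under 0.05, 371, 800 and 1902 genes passed, and voom called 0, 0 and 520 genes. With the replicate block, 157 genes were called in the standard model at 24 h, none of them among the 6. Between 24 h and 72 h, 0 of the 6 were called in standard controls (background 0%, 127 genes at an unadjusted p under 0.05, 0 with voom) and 1, Slc27a1, in inverse controls (background 19.2%). With limma, 0 of the 6 were called in the 4 tests of a difference between models or time points (background 0%). An unadjusted limma p under 0.05 was reached there by 182 and 501 of 14452 genes between models at 24 h and 72 h. Between time points, 141 of 13694 genes reached it in the standard and 1471 of 13722 in the inverse model. Among them were Lpcat3 (72 h between models, 0.0416) and Slc27a1 and Lpcat3 (inverse time points). Without any difference, a share of 0.05 of genes would reach it on average. The counts of 182, 501 and 141 lay below that share, as did 371 and 127 above. Voom called 0, 0, 0 and 13 genes, none of them among the 6. Without the libraries numbered 1 or 2, the count in the standard model remained 0 of 6 in all comparisons, as it did in the inverse model at 24 h without the keratin-containing library.

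Values of the closest relatives by sequence are given side by side. By identity of the longest coding sequences, the closest pairs were Acsl3 and Acsl4 (66.6%), Slc27a1 and Slc27a4 (66.2%) and Acsl1 and Acsl5 (63.5%), against 50.2% to 57.1% for all other pairs. In inverse co-culture at 72 h, the log2 fold changes within these pairs were -0.28 and 0.91, -1.07 and -0.28, and -3.79 and 0.02. Exons of 4 of the genes overlap those of a neighbour, Acsl1 by 1039 bases with Gm45244, Acsl5 by 404 with Zdhhc6, Lpcat3 by 334 with Emg1 and Acsl3 by 244 with Utp14b. Acsl3 and Utp14b lie on the same strand and the other 3 pairs on opposite strands, and as counting disregarded the strand by default, reads of none of these stretches can be assigned, whereas Acsl4 and the 3 transport proteins have no such overlap.

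Adipocyte markers moved with Acsl1. The summed level of 14 adipocyte markers was 1062, 509 and 974 FPKM in inverse controls at 72 h and 85.6, 139 and 45.2 in co-culture. Of 11 adipocyte markers tested, 10 were lower (limma; 9.57% of all genes tested), among them Plin1 (log2 -4.32) and Adipoq (-3.77), and Cidea was at 0 in these groups. In inverse controls 10 of 11 rose from 24 h to 72 h (10.2% of all genes tested). The standard model also showed it, with sums of 98.8, 102, 34.9 and 78.5 FPKM in the libraries numbered 1, and 189.5 to 617 in the others. The Pearson r of log2 Acsl1 with the log2 sum was 0.96 over the 12 standard and 0.98 over the 12 inverse libraries. For Slc27a1 it was 0.72 and 0.85, and for Acsl4 0.22 and -0.71. These values describe libraries that share groups. The part of adipocyte RNA in the change of Acsl1 and Slc27a1 was not tested.

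**Figure D3:**
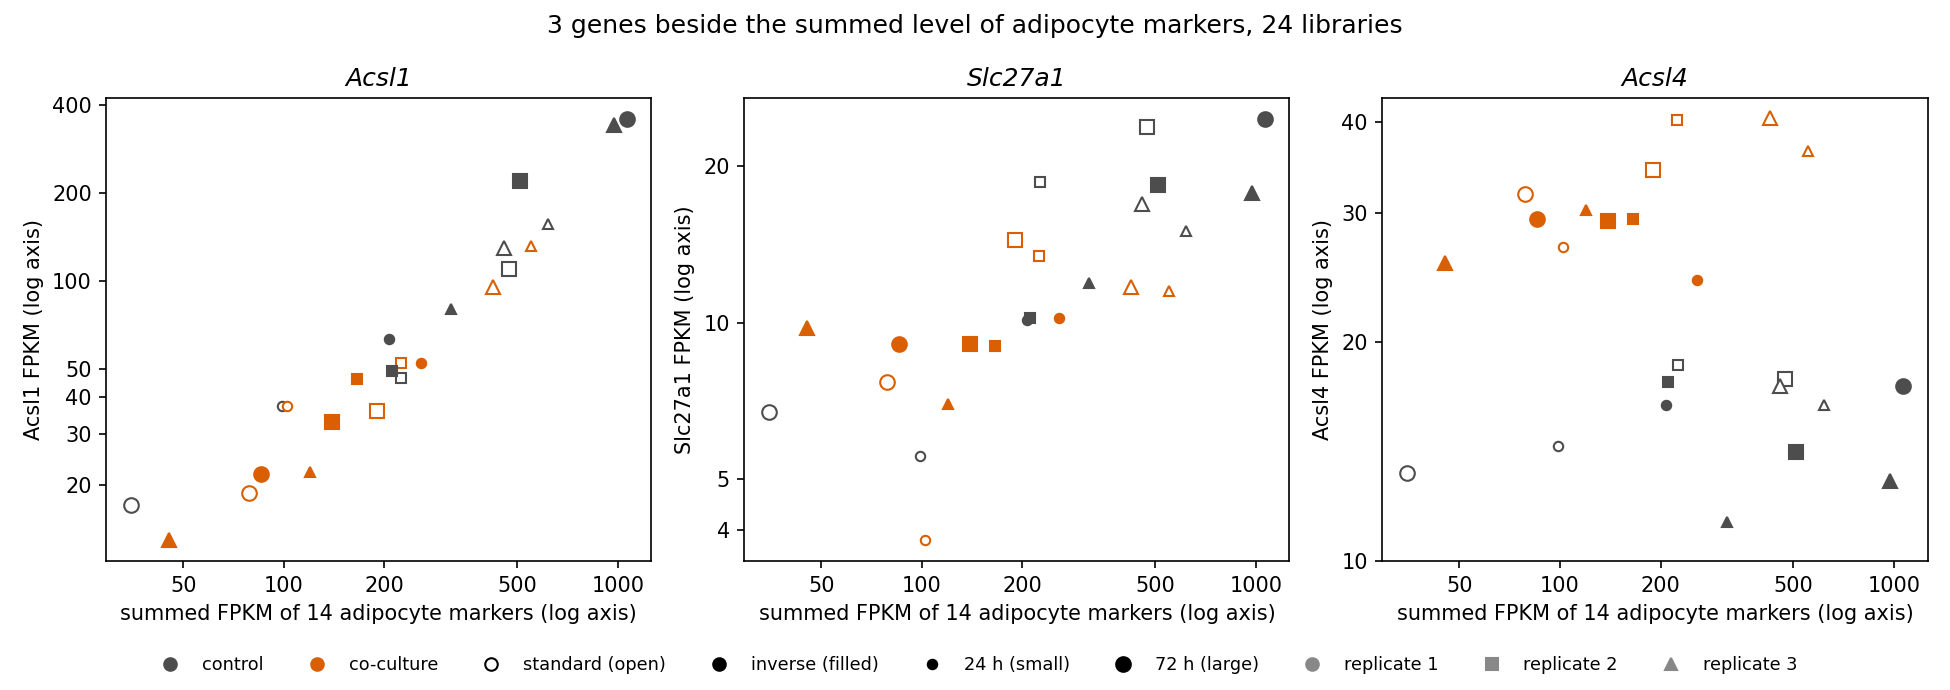
FPKM of Acsl1, Slc27a1 and Acsl4 in each of the 24 libraries against the summed FPKM of 14 adipocyte markers (log axes), with grey for controls, orange for co-cultures, open symbols for the standard and filled ones for the inverse model, small for 24 h and large for 72 h. Acsl1 rises along with the marker sum in both models, while Acsl4 lies between 24.3 and 40.5 FPKM in co-cultures, with sums from 45.2 to 551, and between 11.3 and 18.6 FPKM in controls, with sums from 34.9 to 1062.

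Macrophage markers moved as well. Their sum was 199, 123 and 232 FPKM in inverse controls at 72 h and 76.3, 80.1 and 50.7 in co-culture, 5 of 7 tested markers were lower (limma; 9.57% of all genes tested), and Aif1 and Cd163 were at 0 in co-culture. The Pearson r of the log2 macrophage sum with log2 Slc27a1 was 0.80 over the 12 standard and 0.87 over the 12 inverse libraries. The sum of 16 stellate cell and fibroblast markers was 24884, 28006 and 22000 FPKM in inverse controls at 72 h and 35484, 34806 and 29747 in co-culture. Col3a1 alone had group means from 8272 to 17902 FPKM, so the sum does not show the direction of single markers. In inverse co-culture at 24 h, Acta2 was lower (log2 -1.01, limma; 1.39% of all genes tested). Col3a1 (0.59) and Pdgfra (0.53) were higher there (1.08% of all genes tested), and no other of these markers was called. Epithelial markers had sums of 8.08, 49.4 and 11.5 FPKM in inverse co-culture at 24 h against 5.39 to 7.18 in controls, and 6.68 to 10.5 against 6.16 to 8.02 at 72 h, where Krt19 was higher (log2 2.03, limma adjusted p = 0.0189) and Epcam was at 0 in both groups. Of the 11 epithelial markers, only 1 passed 1 FPKM in each control group and each standard co-culture group, and this was Sox9 (2.38 to 8.75 FPKM over the libraries). In inverse co-culture 5 passed at 24 h and 3 at 72 h. The r of the log2 epithelial sum with log2 Acsl4 was 0.21 over the standard and 0.49 over the inverse libraries. It rests largely on Sox9 in the groups with 1 such marker, and the part of epithelial markers in the values of Acsl4 was not tested.

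In inverse co-culture at 72 h, Slc27a1 was lower than in the controls. For the same comparison, 7 lists of other genes of fatty acid handling were counted. The background was 9.57% of all genes lower and 3.27% higher. Among fatty acid uptake and binding genes, 6 of 14 tested were lower and none higher, namely Cd36 (log2 -3.31), a scavenger receptor for fatty acids, the binding proteins Fabp4 (-3.00) and Fabp5 (-2.04), Cav1 (-2.35), the caveolae protein, and 2 more. Of the other acyl-CoA synthetases, 4 of 6 were lower, among them Acss3 (-1.55), Acss2 (-1.30), which activates acetate, and Acsf3 (-0.88), which activates malonate. Slc27a6 alone was higher (1.69 ± 0.36, limma adjusted p = 0.0235). For entry of acyl groups into mitochondria, 5 of 7 were lower, including Cpt2 (-0.90), Crat (-0.81), Cpt1a (-0.47), the rate-limiting carnitine palmitoyltransferase of the outer membrane, and Slc22a5 (-0.42), the carnitine transporter.

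Transcription factors of lipid metabolism were lower in 8 of 16 cases (9.57% of all genes), with Mlxipl at -2.39, Cebpa at -2.13, Pparg at -1.55 and Ppargc1a at -1.53. Ppargc1a is near the floor, with group means from 0.185 to 1.44 FPKM and no library above 1.6. Mlxipl had group means from 0.626 to 5.78 FPKM. The medians of these 4 lists were -0.88, -0.69, -0.44 and -0.80, beside -0.16 over all genes. In 3 further lists, the counts are set beside 12.8% of all genes called. Of 10 acyl-CoA thioesterases, which release fatty acids from coenzyme A, 0 were called (median -0.24), and 2 of 13 lysophospholipid acyltransferases were lower, Agpat2 (-1.87) and Lpgat1 (-0.92), with a median of 0.18. Of 22 genes of polyunsaturated lipid peroxidation, the setting of Acsl4 and Lpcat3, only Fads2 was higher (0.43), a desaturase of polyunsaturated fatty acids, and only Aifm2 lower (-0.53), which protects from ferroptosis, with a median of -0.14. The adipocyte and macrophage sums given above moved with these lists too, but Fabp4 belongs to both the adipocyte markers and the uptake and binding list. A gene above 1 FPKM only in the controls passes the filter through them and can only come out lower. Such genes can add to the lower counts of lists, marker lists and background alike. Genes above 1 FPKM only at 72 h can likewise add to the higher counts in inverse controls.

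In mono-cultured PSC of the inverse model, these lists moved from 24 h to 72 h as follows, where 10.2% of all genes were higher and 9.05% lower. Higher were 5 of 15 uptake and binding genes, 4 of 5 other acyl-CoA synthetases, 2 of 7 genes of mitochondrial entry, 5 of 16 transcription factors and 5 of 22 lipid peroxidation genes, and lower was only 1 of them, the binding protein Fabp3 (-0.78). Of thioesterases 1 was higher and 1 lower, and of lysophospholipid acyltransferases 2 were higher and 1 lower. Cd36 (1.79), Cav1 (0.92), Acss2 (1.34) and Mlxipl (2.36) rose, as Acsl1 and Slc27a1 were higher there. Cell type markers moved in the same comparison. Of the adipocyte markers 10 of 11 rose, as did 5 of 7 macrophage markers, whose sums went from 69 to 83.7 FPKM at 24 h to 123 to 232 at 72 h. Of 14 stellate cell and fibroblast markers, 5 were lower, Acta2 (-1.43), Tagln (-0.91), Des (-0.83), Vim (-0.57) and Thy1 (-0.56), and 2 higher, Col3a1 (0.52) and Pdgfra (0.47). Their part in the rise of these lists was not tested. This comparison shares its 72 h controls with the one above. In the inverse model at 24 h, 1 of the 14 uptake and binding genes was higher, Fabp7 (1.70), and 1 lower, Cav1 (-0.74), where 1.08% and 1.39% of all genes were called, and no gene of the other 6 lists was called. In the standard model, fits without the replicate block called 0 genes of these lists in any comparison, and 0% of all genes tested. With the block, 157 genes were called over all genes at 24 h.

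**Figure D4:**
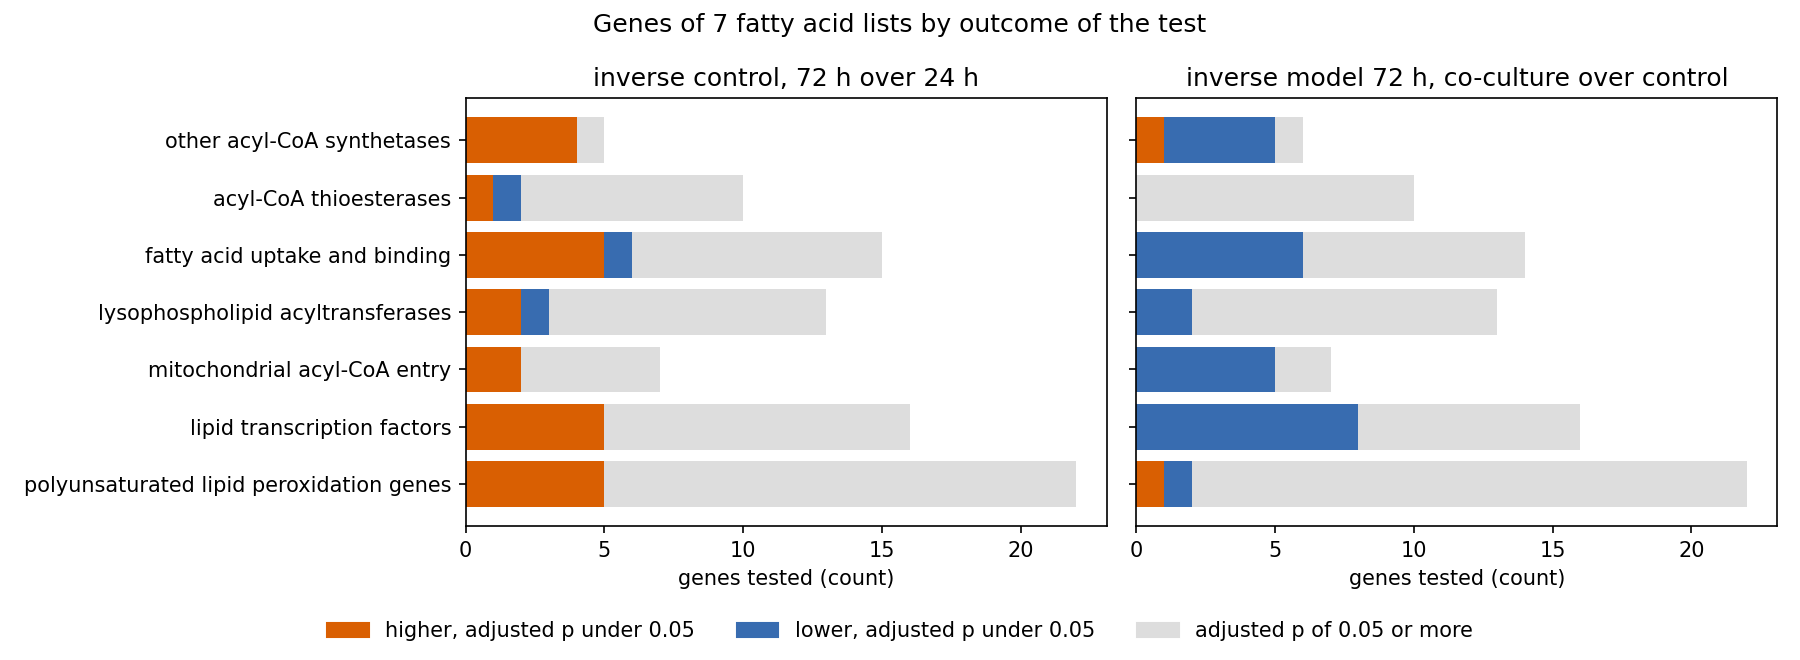
Number of genes tested in each of 7 lists of fatty acid genes, coloured by whether they were higher, lower or not past the adjusted p limit, for inverse controls at 72 h over 24 h (left) and for inverse co-culture over control at 72 h (right). Called genes were mostly higher on the left, for instance 4 of 5 other acyl-CoA synthetases, and mostly lower on the right, for instance 6 of 14 uptake and binding genes. Over all genes tested, 10.2% were higher and 9.05% lower on the left. On the right, 3.27% of all genes were higher and 9.57% lower, so called genes were mostly lower there over all genes too.

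The genes most like Acsl1 over the 24 libraries, by Pearson r of log2 values among 14451 genes, were A530016L24Rik (0.984), Plin1 (0.984), which coats lipid droplets, the lipases Pnpla2 (0.98) and Lipe (0.971), and Gpat3 (0.971), an acyltransferase of triglyceride synthesis. Those most like Acsl4 were Chst11 (0.928), a chondroitin sulfotransferase, Olr1 (0.907), a receptor for oxidised lipoproteins, Vcan (0.906), a proteoglycan, Pi4k2b (0.887) and Star (0.876), a cholesterol transporter. Among the 8 genes, r was 0.71 for Acsl1 with Slc27a1, 0.72 for Acsl3 with Slc27a1, -0.72 for Acsl4 with Slc27a4 and -0.37 for Acsl1 with Acsl4. All of these r share the same 24 libraries and the 8 groups they form.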

How the data were processed

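Per the labels, reads of PSC RNA were aligned with HISAT2 2.0.5 to GRCm38 and counted with featureCounts 1.5.0-p3, and the authors deposited FPKM values of 53801 genes in 24 libraries. The annotation release is not given in the sources used here. Genes were matched to GENCODE M21 (53706 of 53801). Low FPKM values were whole multiples of 1 fragment in 95.62% to 96.52% of cases (tolerance 0.02 fragments), which gave the depth of each library (median 18860269 fragments).

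For tests, limma 3.58.1 (R 4.3.3) was fitted to log2(FPKM + 0.5) with an intensity trend, two-sided, over genes above 1 FPKM in 3 or more libraries of the fit, with Benjamini-Hochberg adjustment over all of them and a limit of 0.05. Fold changes on this scale understate those of low genes. Each comparison used its 6 libraries, a difference between models all 24, and a difference between time points the 12 of the model. The fits were run on simulated data with independent libraries, to check the sign and size of set changes. That simulation held no shared shift of same-numbered libraries, so it does not cover the standard model in this respect.

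The 8 genes and all lists were chosen with earlier results of these data known. Named genes are the 8, up to 4 called genes of each list with the largest change in the inverse model at 72 h, and the 5 genes most like Acsl1 and Acsl4; genes behind counts of 5 or fewer, marker genes and the examples for inverse controls were named after their values were seen.

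Same-numbered libraries of the standard model moved together around their group means (r over genes from 0.39 to 0.77 in the 6 co-culture and control pairs), although the labels state no pairing. The values given are from fits without the replicate block unless the block is named. Alternatives were pseudocounts of 1 and 0.1, no filter, scaling by the median of gene ratios, voom on recovered fragments, the replicate block, other libraries in the fit, each library left out, and, added after seeing the data, the standard libraries numbered 1 or 2 left out.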

Additional observations from a re-analysis of the deposited data

How the results depend on the processing

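For the 8 genes, 64 log2 values were recomputed in 976 alternatives. Of these, 921 kept direction and side of the limit, 51 changed direction, in 20 values of at most 0.44 in size and never with a call, and 4 gained or lost a call. The cause of these changes was not tested. Scaling by the median of gene ratios turned Acsl5 in the standard model at 72 h to 0.03, Acsl3 and Acsl5 in the inverse model at 24 h to 0.01 and 0.03, and Lpcat3 in standard controls to 0.00. Without the standard libraries numbered 1, chosen after seeing the data, Acsl3 was -0.07 at 24 h, -0.02 at 72 h and -0.01 in the controls, and Acsl5 and Lpcat3 were 0.04 and -0.04 in the controls. Without those numbered 2, Acsl5 was 0.07 at 72 h, and Slc27a4 and Lpcat3 were -0.06 and -0.05 in the controls.

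The count of the 6 tested genes called in the inverse model at 72 h was 0 with all 24 libraries, as it was in inverse controls, where voom gave 2 and leaving out single libraries 1 to 2 (Slc27a3 joined without replicate 2 of the 72 h controls). Over all genes, 24 libraries gave 5 and 36 calls in the standard model at 24 h and 72 h, 11 and 897 in the inverse model, and 225 in inverse controls. No filter gave 50 and 888 in the inverse model, 1425 in inverse controls, 2 and 5 for the difference between models at 24 h and 72 h, and 3 and 4 for that between time points in the standard and the inverse model. Voom gave 520 in the inverse model at 24 h and 13 for its difference between time points, where a pseudocount of 1 gave 2.

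With the replicate block, the calls over all genes were 157 and 1 in the standard model, 88 and 902 in the inverse model, and 16 for the difference between models at 72 h. The replicate numbers of the inverse model showed no pairing (r from -0.12 to 0.12), and there not every library correlated best with its own number. The block changed no call among the 6 tested genes (Slc27a1 in the inverse model at 72 h, adjusted p = 0.0292 with limma).

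Leaving out each library in turn gave 67 to 412 calls over all genes in the inverse model at 24 h and 368 to 1637 at 72 h, 1243 to 2369 in inverse controls, 0 to 1 for the difference between models at 24 h, and 0 to 75 for the inverse difference between time points. Among the genes not called, it gave in the standard model at 24 h -0.27 to 0.23 for Acsl3, -0.94 to 0.08 for Slc27a1 and -0.36 to 0.10 for Slc27a3, and at 72 h -0.03 to 0.17 for Acsl3, -0.14 to 0.03 for Acsl5 and -0.85 to 0.03 for Slc27a1. In the inverse model the ranges were -0.13 to 0.04 for Acsl3, -0.10 to 0.03 for Acsl5 and -0.01 to 0.33 for Slc27a3 at 24 h, and -0.07 to 0.07 for Acsl5 at 72 h. In standard controls they were -0.10 to 0.39 for Acsl3, -0.11 to 0.06 for Acsl5, -0.25 to 0.75 for Slc27a1, -0.07 to 0.15 for Slc27a4 and -0.11 to 0.11 for Lpcat3, and in inverse controls -0.13 to 0.01 for Slc27a4. For the differences of the effect, Slc27a1 and Lpcat3 ranged from -0.38 to 0.65 and from 0.00 to 0.23 between models at 24 h, and from -0.43 to 0.60 and from -0.07 to 0.16 between time points in the standard model.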
